A study of Mus musculus with 8 samples.

Results

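The baseline transcriptome of mouse gastrocnemius was taken from the 4 arrays titled control sample 1 to 4, which are 4 of the 8 samples of a study of dietary ursolic acid. The ursolic acid arrays were left out, and no comparison with them is made here. The mice were male C57BL/6 animals aged 12 weeks that had eaten plain chow without restriction for 5 weeks. Each control sample was RNA pooled from the muscles of 2 mice, so the arrays stand for 8 mice if no mouse entered more than 1 pool, which the labels do not say. Title and treatment field call all 4 samples control, whereas the free-text description of control samples 2 and 4 calls them treated. That description alternates in the ursolic acid group too, calling samples 2 and 4 treated but not samples 1 and 3. It therefore does not follow the group. For each of the 14860 genes that had a row of their own on the array, the mean and the SD of the log2 values over the 4 arrays were computed. The spread given throughout is therefore a spread between pools, and it can hold technical as well as animal differences.

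Gastrocnemius is the large muscle of the calf. In mice it is built mainly of fast fibres, which carry fast isoforms of myosin, troponin and the calcium pump, store glycogen and burn it by glycolysis for short bursts of force. Slow fibres carry other isoforms of the same proteins, contract more slowly and depend more on mitochondria. Between the fibres lie capillaries, fibroblasts and their matrix, tendon and nerve, resident macrophages, fat cells and the satellite cells from which fibres regenerate.

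The 4 arrays were not equally alike. The mean Spearman correlation with the other 3 controls, taken over all genes, was 0.979 for control sample 1 and lay between 0.985 and 0.986 for samples 2, 3 and 4. Among genes above the receptor level (defined in the next paragraph), the median absolute difference between samples was 0.129, 0.123 and 0.150 log2 units in the 3 pairs that hold sample 1. It was 0.0854 between samples 2 and 3, 0.0897 between samples 2 and 4 and 0.105 between samples 3 and 4. By this measure the closest pair was samples 2 and 3, whose descriptions differ. By Spearman correlation over all genes it was samples 2 and 4, both described as treated, at 0.9896 against 0.9889 for samples 2 and 3. Sample 1 was nearest to sample 3, the other control sample not described as treated, by both measures (correlation 0.980). No 2 control arrays were identical. Some of the results that rest on sample 1 are given with and without it.

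Levels are the deposited values from robust multi-array averaging (RMA), a log2 scale of array signal on which 1 unit is a factor of 2. Mean levels ran from 2.06 to 12.96 with a median of 5.63, and the middle 50% of genes lay between 4.84 and 6.59. A level of at least 8 was reached by 1249 genes, of at least 10 by 175, of at least 11 by 48 and of at least 12 by 7. Signal also depends on how well a gene's probes bind, so the order of genes by level is an order of array signal and not of mRNA molecules or of mRNA per length. As a yardstick for background, the 800 olfactory and vomeronasal receptor genes were used, which serve smell and are not known to act in muscle. Their median level was 3.77 and their 95th percentile 5.64, called the receptor level below. Of all genes, 7389, or 49.7%, had a mean above it, and 6429 were above the corresponding level in each of the 4 arrays. The highest receptor gene, Olfr1410, reached 7.36, so a gene somewhat above the receptor level may still carry only background.

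The top of the order was nearly the same in every pool. Of the 100 genes of highest value in each array, 94 were shared by all 4 arrays, and 105 different genes filled the 4 sets. Leaving aside 1 row named only by a sequence accession, the 30 genes of highest mean spanned 11.42 to 12.96. By role, 7 of them encode contractile proteins, 3 handle calcium, 4 act in glycolysis or glycogen breakdown, 6 are subunits of the respiratory chain or ATP synthase, 2 are other mitochondrial proteins and 8 have other roles. Their median SD was 0.0353, and 3 of the 30 had an SD of 0.1 or more.

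**Figure D1:**
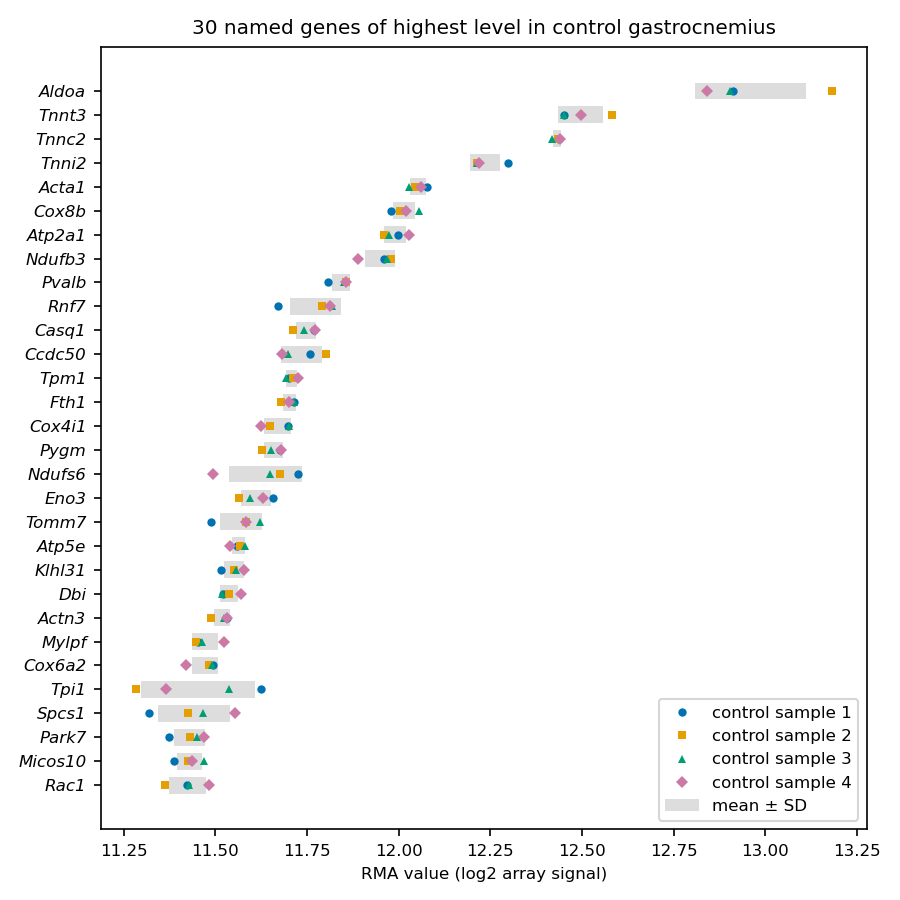
Levels of the 30 named genes of highest mean in control gastrocnemius. The x axis is the RMA value in log2 array signal, each symbol is 1 control sample and the grey bar spans the mean ± SD of the 4 samples; most bars are narrow, and those of Aldoa, Ndufs6 and Tpi1, the 3 genes with an SD of 0.1 or more, are wide.

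Aldoa, the muscle form of the glycolytic enzyme aldolase, gave the highest signal, with levels of 12.91, 13.18, 12.90 and 12.84 in samples 1 to 4 (SD 0.152). Sample 2 stood above the other 3, which lay close together. The 3 subunits of the fast troponin complex, the calcium switch of the thin filament, came next. Tnnt3, which anchors the complex to tropomyosin, had values of 12.45, 12.58, 12.45 and 12.50. Tnnc2, which binds calcium, had 12.44, 12.43, 12.42 and 12.44, and its SD of 0.0102 was among the 10 smallest of all genes at a level of 8 or more. Tnni2, which holds the filament inhibited at rest, had 12.30, 12.21, 12.21 and 12.22, with sample 1 slightly above the rest. Troponin T and troponin I of fast muscle lie close together on chromosome 7, with 1 protein-coding gene, Lsp1, between them in the RefSeq annotation of GRCm38.p6. Chromosome 7 held 7 of the 30 genes, namely Aldoa, Tnnt3, Tnni2, Cox8b, Atp2a1, Mylpf and Cox6a2, against 8.21% of all genes with a known chromosome. The latter share counts receptor genes, 188 of them on chromosome 7, which the 30 leave out. Among the 100 genes of highest mean the share on chromosome 7 was 15%.

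Acta1, the actin of skeletal thin filaments, followed at 12.08, 12.04, 12.03 and 12.06. The other contractile proteins among the 30 were Tpm1 at a mean of 11.71 ± 0.014 (SD, n = 4 pools), Actn3 at 11.52 ± 0.021 and Mylpf at 11.47 ± 0.035; they are a tropomyosin, the alpha-actinin of fast Z-discs and the regulatory light chain of fast myosin. Calcium handling was represented by Atp2a1, the pump that returns calcium to the sarcoplasmic reticulum in fast fibres, at 12.00, 11.96, 11.97 and 12.03. Pvalb, the soluble calcium buffer parvalbumin, had 11.81, 11.86, 11.85 and 11.86, and Casq1, which stores calcium inside the reticulum, averaged 11.75 ± 0.027. In Pvalb sample 1 was the low one, by little, and in Atp2a1 the 4 samples were evenly spread.

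Glycolysis and the respiratory chain made up 10 of the 30. Pygm, the phosphorylase that releases glucose units from glycogen, had a mean of 11.66 ± 0.025, and Eno3, the muscle enolase, one of 11.61 ± 0.041. Tpi1, triose phosphate isomerase, was less steady at 11.62, 11.28, 11.54 and 11.37, with samples 2 and 4 low. Among the cytochrome c oxidase subunits, Cox8b stood at 12.01 ± 0.031, Cox4i1 at 11.67 ± 0.037 and Cox6a2, the form of heart and skeletal muscle, at 11.47 ± 0.035. The complex I subunit Ndufb3 had 11.96, 11.98, 11.97 and 11.89, and sample 4 was the low one. The other complex I subunit, Ndufs6, spread more, with 11.73, 11.68, 11.65 and 11.49, and Atp5e of ATP synthase averaged 11.56 ± 0.017. The genes with other roles included Fth1, the heavy chain of the iron store ferritin, at 11.70 ± 0.017, Dbi, which binds acyl-CoA esters, at 11.54 ± 0.024, and Park7, a protein of the oxidative stress response, at 11.43 ± 0.042. Klhl31, a protein of muscle development, averaged 11.55 by its brighter row and 10.47 when its 2 rows were averaged, so its place among the 30 rests on that row.

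The promoters of a fast and a slow troponin C gene, of skeletal actin and of muscle creatine kinase (Ckm) are shown because they belong to the bright contractile and energy genes, and because the troponin C pair holds the steadiest fast gene and the slow gene that varied most. Each window runs from 250 bases before to 50 bases after the start site on the gene's strand, as given by RefSeq for GRCm38.p6: chr2:164779685-164779984 on the minus strand for Tnnc2, chr14:31208062-31208361 on the plus strand for Tnnc1, chr8:123894726-123895025 on the minus strand for Acta1 and chr7:19410844-19411143 on the plus strand for Ckm. Capitals mark matches to 4 motifs searched on both strands: TATAAA, the E-box CANNTG, a MEF2-like motif of CTA and TAG with 4 free bases between, and the CArG box bound by serum response factor.
Tnnc2: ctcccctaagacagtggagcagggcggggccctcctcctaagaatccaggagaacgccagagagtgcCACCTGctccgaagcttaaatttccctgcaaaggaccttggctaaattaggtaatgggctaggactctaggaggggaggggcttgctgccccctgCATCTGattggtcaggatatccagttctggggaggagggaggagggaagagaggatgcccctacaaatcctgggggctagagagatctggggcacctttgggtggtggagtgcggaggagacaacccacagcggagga
Tnnc1: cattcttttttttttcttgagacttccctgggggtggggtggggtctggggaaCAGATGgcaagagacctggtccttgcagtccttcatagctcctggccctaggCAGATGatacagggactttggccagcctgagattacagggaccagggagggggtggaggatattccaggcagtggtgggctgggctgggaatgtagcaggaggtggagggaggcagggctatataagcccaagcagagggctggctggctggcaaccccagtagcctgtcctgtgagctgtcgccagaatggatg
Acta1: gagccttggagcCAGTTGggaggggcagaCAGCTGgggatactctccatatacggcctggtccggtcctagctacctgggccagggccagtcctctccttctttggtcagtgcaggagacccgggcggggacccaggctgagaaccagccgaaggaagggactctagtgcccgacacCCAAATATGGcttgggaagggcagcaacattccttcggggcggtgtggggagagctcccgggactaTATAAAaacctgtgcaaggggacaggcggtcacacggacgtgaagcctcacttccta
Ckm: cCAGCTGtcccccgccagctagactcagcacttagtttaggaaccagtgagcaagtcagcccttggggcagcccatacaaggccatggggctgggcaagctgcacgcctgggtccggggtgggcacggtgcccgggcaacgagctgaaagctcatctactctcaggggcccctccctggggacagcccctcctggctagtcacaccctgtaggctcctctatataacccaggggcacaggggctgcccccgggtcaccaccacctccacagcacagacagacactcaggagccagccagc

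No 2 matches overlapped. The window of Tnnc2 and that of Tnnc1 each hold 2 E-boxes and none of the other motifs, and the Ckm window holds 1 E-box. The Acta1 window holds 2 E-boxes, 1 CArG box and 1 TATAAA, the last of which begins 7 bases before the annotated start. Of the 100 genes of highest level, 82 had windows, 106 in all. TATAAA occurred in 12.3% of those windows, CANNTG in 73.6%, the MEF2-like motif in 0.943% and the CArG box in 1.89%. Over all 32851 windows of the table the shares were 13.6%, 72.3%, 3.69% and 1.63%, and over the 14898 windows of measured genes 10.9%, 67.5%, 3.49% and 1.33%. The MEF2-like share of the bright genes rests on 1 window. Genes above the receptor level held TATAAA in 7.41% of their windows, against 11.9% for genes at or under it with the receptors left out. A match is a run of letters and was not tested as a binding site.

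Groups of genes were described through 36 lists of pathway genes and cell type markers, each by the median percentile of its members' mean levels among all genes, where 50 is the middle. Fast fibre sarcomere genes stood highest, with a median percentile of 99.9. Of the 14 listed, 10 were measured, all 10 lay above the 90th percentile and 8 were among the 100 brightest genes. The myosin heavy chains Myh1, Myh2 and Myh4 and the kinase Mylk2 are not analysed here because they had no row of their own. Below the genes already named came Mybpc2, the fast myosin-binding protein C, at a mean of 11.14 ± 0.046, Myoz1, a Z-disc protein of fast fibres, at 10.10 ± 0.106, and Myl1, the alkali light chain, at 9.02 ± 0.025.

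Slow fibre genes were also bright. Their median percentile was 98.2 over the 8 of 12 measured, and 7 of the 8 were above the receptor level. Myl2, the slow regulatory light chain, ranked 32 among all genes at 11.50, 11.45, 11.41 and 11.20. Mybpc1, the slow form of myosin-binding protein C, had 10.70, 10.70, 10.67 and 10.65, and Tnnc1, the slow and cardiac troponin C, had 10.80, 10.92, 10.82 and 9.89. Sample 4 had the lowest value of all 3 genes, by little for Mybpc1 and by much for Tnnc1. Sln, sarcolipin, a small inhibitor of the calcium pump, was under the receptor level with a mean of 5.12. Sarcomere genes that both fibre types use had a median percentile of 98.7, with 16 of 16 measured genes above the receptor level, among them the Z-disc protein Myot at 11.32 ± 0.058, the M-band protein Myom1 at 10.48 ± 0.035 and desmin, Des, at 10.07 ± 0.069.

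The energy lists stood at a similar height. Respiratory chain and ATP synthase genes had a median percentile of 99.1 with 29 of 29 above the receptor level and 28 above the 90th percentile. Citric acid cycle and pyruvate dehydrogenase genes had 97.8 with 16 of 16 above the receptor level, led by Mdh2, mitochondrial malate dehydrogenase, at 10.90 ± 0.036. Fatty acid use had 96.1 with 14 of 14, led by the fatty acid carrier Fabp3 at 11.20 ± 0.060. Glycolysis and glycogen had 96.4 with 14 of 16, and the 2 below were Pkm at 5.21 ± 0.156 and Hk1 at 5.16 ± 0.063. Hk1 is the hexokinase of tissues such as brain, whereas the muscle form Hk2 stood at 8.73 ± 0.083. Pkm is the pyruvate kinase of muscle, which acts just after Eno3 in the pathway, and it was measured by 1 row. In the creatine and adenylate list 7 of 7 were above the receptor level, with Ckm at 10.99 ± 0.063 and myoglobin, Mb, at 10.03 ± 0.099. Calcium handling genes had a median percentile of 95.9 with 18 of 18 above, including the release channel Ryr1 at 9.83 ± 0.058 and its voltage sensor Cacna1s at 9.66 ± 0.047.

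**Figure D2:**
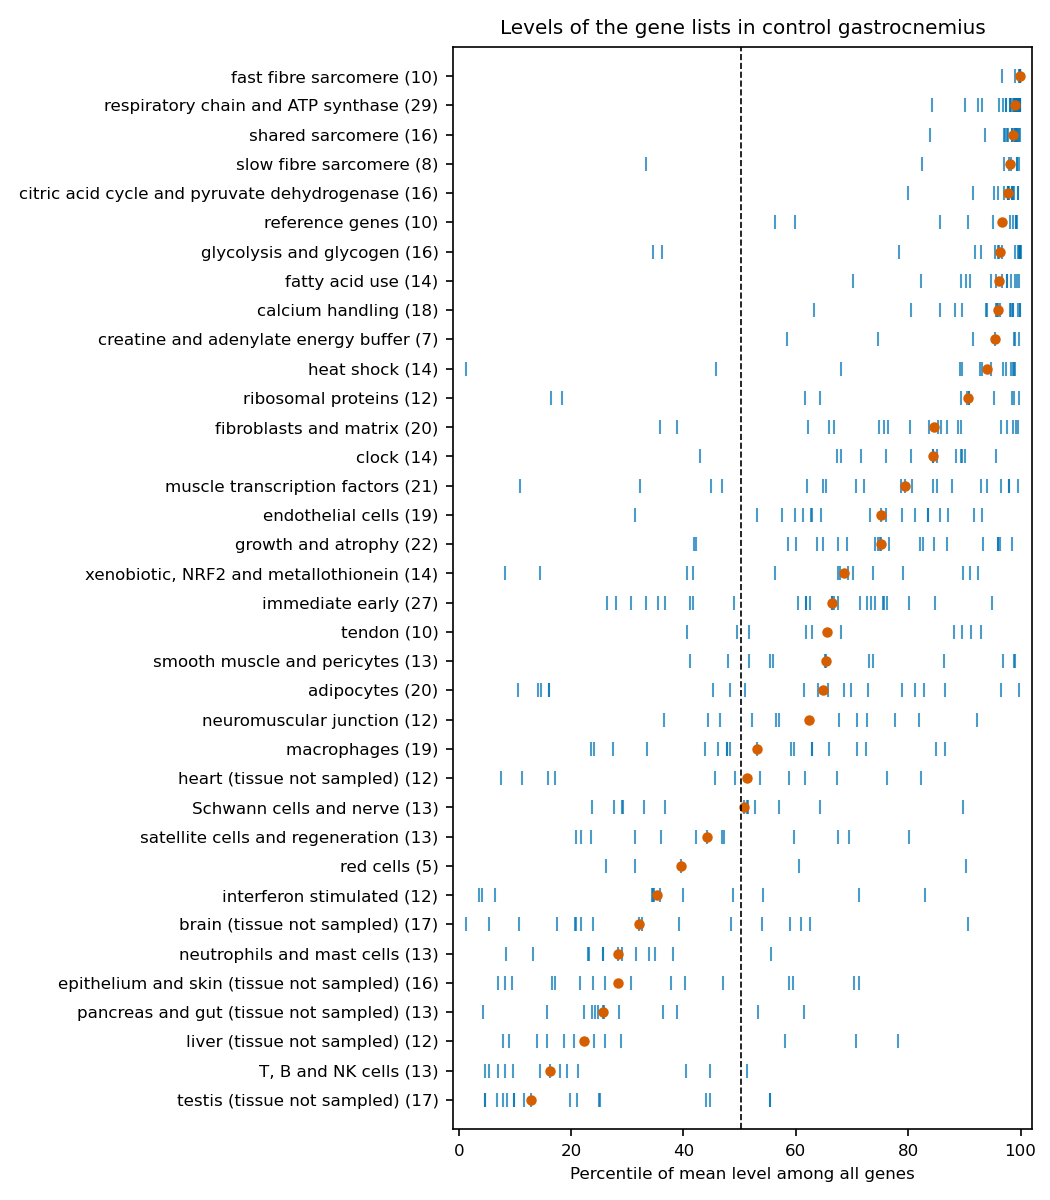
Levels of the 36 gene lists in control gastrocnemius, with the number of measured genes in brackets. Each tick is 1 gene at its percentile of mean level among all genes, the orange point is the list median and the dashed line marks the receptor level; muscle and energy lists lie above the 90th percentile in the median and lists of tissues that were not sampled lie mostly left of the dashed line.

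Lists of regulators had lower medians than those of contractile and energy genes. Muscle transcription factors had a median percentile of 79.4 with 17 of 21 above the receptor level. Mef2c, a MADS-box factor of muscle genes, was the brightest at 10.75 ± 0.031, followed by Nfix at 9.54 ± 0.016 and the myogenic factor Myf6 at 9.54 ± 0.094. The other myogenic factors were lower, with Myod1 at 6.44 ± 0.181, Myf5 at 5.53 ± 0.142 and Myog at 5.09 ± 0.285, the last of them under the receptor level in all 4 samples. Sox6, which represses slow genes in fast fibres, stood at 8.21 ± 0.010, and Prox1, a factor of slow fibres, at 4.13 ± 0.182. Growth and atrophy genes had a median percentile of 75.1 with 20 of 22 above the receptor level. Myostatin, Mstn, the secreted inhibitor of muscle growth, had 9.68, 9.72, 9.67 and 9.97, with sample 4 above the others. The atrophy ubiquitin ligase Fbxo32 was even at 8.86, 8.87, 8.91 and 8.89, and the growth factor Igf1 had 7.26, 7.51, 7.45 and 7.65.

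The other cell types of muscle were measured together with the fibres, and in bulk RNA fewer cells of a type and less RNA per cell cannot be told apart. Fibroblast and matrix genes had the highest median percentile of these lists, 84.6 with 18 of 20 above the receptor level. Decorin, Dcn, a matrix proteoglycan, stood at 10.79 ± 0.074, Sparc at 10.38 ± 0.048 and the collagen chain Col1a1 at 7.37 ± 0.064. Endothelial genes followed at 75.2 with 18 of 19, among them the water channel Aqp1 at 8.23 ± 0.110, the junction cadherin Cdh5 at 8.03 ± 0.064 and Pecam1 at 7.48 ± 0.064. Smooth muscle and pericyte genes had 65.5 with 11 of 13, tendon genes 65.5 with 8 of 10 and adipocyte genes 64.9 with 13 of 20. Car3, carbonic anhydrase 3, headed the adipocyte list at 11.14 ± 0.040, and it is also abundant in muscle fibres, as desmin of the pericyte list is. The adipose hormone Lep was under the receptor level at 4.33 ± 0.188, while adiponectin, Adipoq, was above it at 7.42 ± 0.317.

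Macrophage genes sat at the middle, with a median percentile of 53.1 and 10 of 19 above the receptor level. Their brightest members were Tyrobp at 7.43 ± 0.159 and the protease Ctss at 7.28 ± 0.150, whereas the defining receptor Adgre1 (F4/80) was at 4.79 ± 0.054. Schwann cell and nerve genes had 50.7 with 7 of 13, and satellite cell genes 44.1 with 4 of 13. Pax7, the factor that marks satellite cells, had 5.63, 5.51, 5.63 and 5.35, all under the receptor level. Neuromuscular junction genes had 62.4 with 9 of 12 above it, led by the receptor kinase Musk at 8.11 ± 0.085. The adult subunit of the acetylcholine receptor, Chrne, stood at 7.05 ± 0.164, and its fetal counterpart Chrng was under the receptor level at 5.52 ± 0.067.

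Lymphocytes and granulocytes gave little signal. Lymphocyte genes had a median percentile of 16.2 with 1 of 13 above the receptor level, Cd3e of the T cell receptor complex at 5.67 ± 0.187. Neutrophil and mast cell genes had 28.4 with 1 of 13, Elane at 5.80 ± 0.097. Red cell genes had 39.5 with 2 of the 5 measured above the receptor level, Bpgm, an enzyme that tunes oxygen release from haemoglobin, at 7.83 ± 0.161 and Alas2, which starts haem synthesis, at 5.97 ± 0.137, and the adult globin genes are not analysed here. Tissues that were not sampled were low as well. Liver genes had 22.3 with 3 of 12 above the receptor level, brain 32.2 with 5 of 17, testis 12.8 with 2 of 17, pancreas and gut 25.6 with 2 of 13, and epithelium and skin 28.3 with 4 of 16. Within the brain list, Camk2a stood out at 7.87 ± 0.057. Heart genes had 51.4 with 6 of 12, and the highest of them, Pln, the inhibitor of the slow calcium pump, is also made in slow skeletal fibres.

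Spread was small and shrank with level. The SD between pools had a median of 0.118, with 25% of genes at or under 0.0786 and 5% at or above 0.304. Its median was 0.105 for genes above the receptor level and 0.132 for those at or under it. It was 0.150 in the lowest 10% of genes by level and 0.0505 in the highest 1%. Of the genes above the receptor level, 3497 had an SD under 0.1, 176 (2.38%) an SD of at least 0.3 and 13 an SD of at least 0.5. Another 88 genes with an SD of at least 0.5 were at or under the receptor level. Without sample 1 the median SD over all genes was 0.0924.

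**Figure D3:**
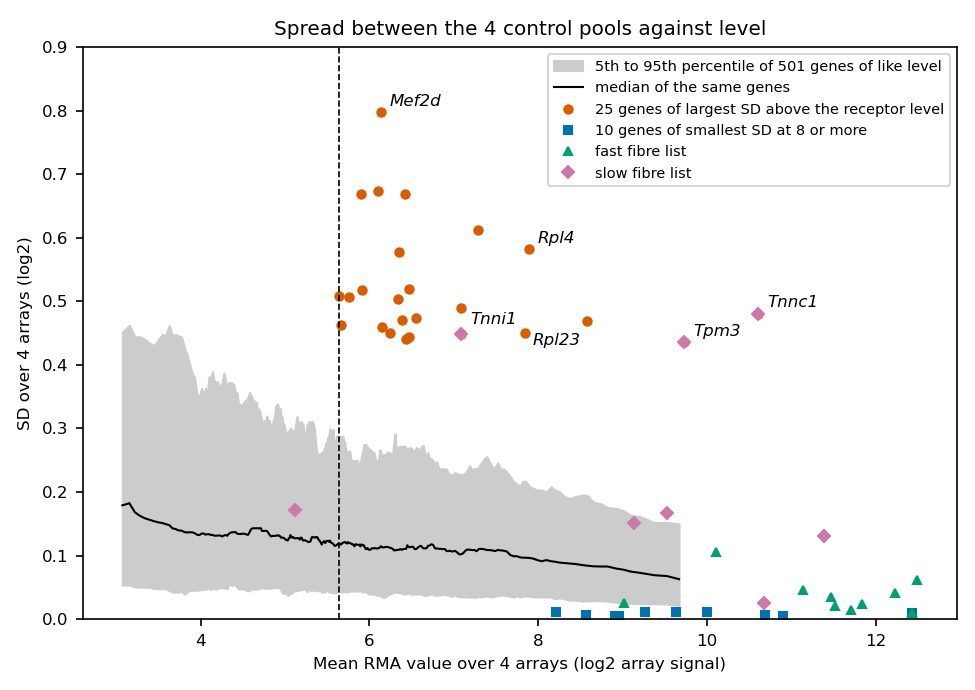
SD over the 4 control arrays against mean level, both on the log2 scale. The grey band spans the 5th to 95th percentile of the SD among 250 genes on either side in level and the dashed line marks the receptor level; the slow fibre genes Tnnc1, Tpm3 and Tnni1 lie far above the band at their levels, and 8 of the 10 fast fibre genes lie at or under the median SD of their level.

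The steadiest genes at a level of 8 or more had SDs between 0.0042 and 0.0112. Atp1b2, the beta-2 subunit of the sodium pump, had 8.91, 8.90, 8.91 and 8.90. B2m, the light chain of class I histocompatibility molecules and a common reference gene, had 10.69, 10.69, 10.68 and 10.69. The other 8 were Mcee, Foxn3, Ssr4, Tnnc2, Sox6, Cops6, Ube2b and Synm, and in each the 4 samples nearly coincided. Foxn3 had 2 rows that differed widely in brightness, with a mean of 10.90 for the brighter one and of 9.41 over both. Other reference genes were less even. Actb, cytoplasmic actin, had 9.80, 9.59, 9.45 and 9.48, with sample 1 highest, and Hprt had 7.67, 7.84, 7.94 and 8.02, with sample 1 lowest.

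Of the 25 genes of largest SD above the receptor level, sample 1 had the lowest value in 14 and the highest in 6. Over all genes above that level sample 1 was lowest in 40.8% and highest in 26.7%, so the count of 6 is near its share. Sample 4 was highest in 9 of the 25 and lowest in 6, against 33.3% and 20.2% of all genes above that level. Mef2d, another MADS-box factor of muscle, had 5.02, 6.61, 6.13 and 6.80 (SD 0.797), and the difference of sample 1 from the mean of the other 3 was -1.49. Snrpd1, a core protein of the spliceosome, had 5.43, 6.75, 6.62 and 6.88. Slc25a36, a mitochondrial nucleotide carrier, had 5.11, 6.23, 6.46 and 6.58. In these 3 genes sample 1 was the low one by more than the other 3 samples differed among themselves. Serf1 and Tmem230, at 5.69, 6.68, 6.52 and 6.66 and at 5.57, 6.46, 6.46 and 6.48, had the same sample low. Sprr1a, a small proline-rich protein of cornified skin that injured nerve also makes, was reversed at 7.10, 6.47, 6.05 and 5.77, with sample 1 the high one.

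The genes of the slow fibre list were low in sample 4. All 8 measured members had their lowest value there. Over all genes, sample 4 was lowest in 20.2% of those above the receptor level, where 7 of the 8 lie, and in 37.9% of those at or under it. The list score, the mean over members of each value minus the gene's mean over the 4 arrays, was -0.36 in sample 4 and 0.15, 0.11 and 0.10 in samples 1, 2 and 3. The 3 largest gaps were in subunits of the thin filament. Tnnc1 in sample 4 differed from the mean of the other 3 by -0.96, a signal 0.516 times theirs. Tpm3, the slow tropomyosin, had 9.88, 10.03, 9.94 and 9.09 and a ratio of 0.550, and Tnni1, the slow troponin I, had 7.28, 7.25, 7.40 and 6.42 and a ratio of 0.541. Samples 1 to 3 lay close together in each of the 3 genes, and sample 4 lay far outside.

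Outside that list, slow-type genes were mixed in which sample was lowest. Atp2a2, the calcium pump of slow and cardiac muscle, had 9.06, 9.03, 8.94 and 8.44. Casq2, the cardiac and slow calsequestrin, had 6.20, 6.25, 6.02 and 5.75, and Ldhb, the lactate dehydrogenase subunit of oxidative muscle, had 7.07, 6.84, 6.84 and 6.46. In all 3 genes sample 4 was lowest. Pln, the inhibitor of the slow calcium pump, was instead lowest in sample 3, at 7.54, 7.27, 6.40 and 7.12. Of the 18 calcium handling genes as a whole, sample 4 was highest for 6 and lowest for 5. Within the slow list, Myl2 in sample 4 differed from the mean of the others by -0.25, Myoz2, a slow Z-disc protein, had 9.74, 9.55, 9.49 and 9.34, and Csrp3, muscle LIM protein, had 9.22, 9.13, 9.27 and 8.93. The smallest such difference was that of Mybpc1, -0.04. The median SD of the list was 0.169 with all 4 samples and 0.0716 without sample 4, and its members' SDs lay at a median percentile of 95.4 among genes of like level.

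The fast fibre genes varied much less. Their list score was 0.03 in sample 4 and between -0.02 and 0.00 in the others, and the median SD of 0.0304 lay at percentile 15.9 among genes of like level. Sample 4 was the highest for 7 of the 10 measured members, for 8 after median centring (score 0.06) and for 3 after quantile normalization (0.01). Of all genes above the receptor level sample 4 had the highest value in 33.3% and the lowest in 20.2%, and after median centring it was highest in 43.6%. Beside the slow list, sample 4 also had the lowest values of 9 of 13 satellite cell genes (score -0.08), of 9 of 17 brain genes (-0.13) and of 6 of 13 pancreas and gut genes (-0.11), lists whose members lie mostly under the receptor level, where sample 4 was lowest in 37.9% of all genes. The mean deviation of sample 4 from the 4-array mean was -0.04 for the lowest 10% of genes by level and -0.05 for those between the 10th and 25th percentile, and 0.04 for those between the 90th and 99th, where 3 of the 8 slow genes lie, and 0.01 for the highest 1%, which holds another 3. After quantile normalization all 8 slow genes were still lowest in sample 4, with a score of -0.37. After centring on array medians 7 of 8 were, Mybpc1 being the exception, with a score of -0.32. The part that the shift of low rows plays in the slow list was not tested.

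**Figure D4:**
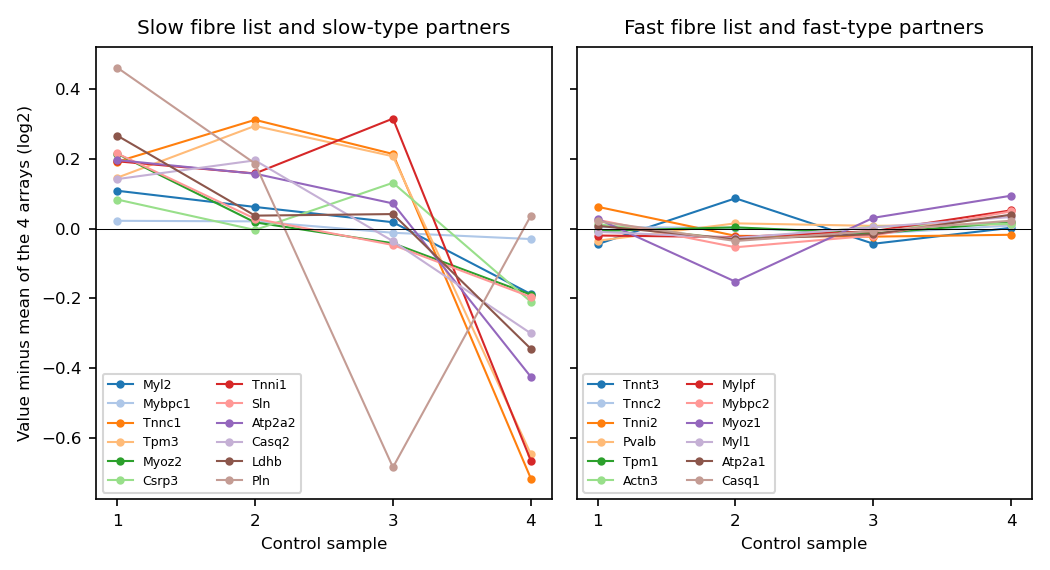
Slow-type genes on the left and fast-type genes on the right in the 4 control samples. The y axis is each value minus the gene's mean over the 4 arrays in log2 units, and the lines only join the values of 1 gene; the slow list drops in sample 4, Tnnc1, Tpm3 and Tnni1 by most, Pln is lowest in sample 3, while the fast genes stay near their means, with Myoz1 in sample 2 the widest exception.

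Sample 1 had the highest value of 21 of the 27 measured immediate early genes, which switch on within minutes of a stimulus. Sample 1 was highest in 26.7% of all genes above the receptor level, where 18 of the 27 lie. In genes at or under that level the share was 40.8%. The score of sample 1 for the immediate early list was 0.21, against -0.08, -0.08 and -0.05 in samples 2, 3 and 4. Egr2, a zinc-finger factor, had 6.64, 5.91, 6.13 and 6.04, and Jund had 6.86, 6.27, 6.38 and 6.13. Zfp36, which destabilises cytokine mRNAs, had 6.29, 5.96, 5.85 and 5.93. In all 3 genes sample 1 was highest. Fos itself was under the receptor level and nearly level, at 5.30, 5.21, 5.21 and 5.18, and Egr1 had 6.31, 6.18, 6.15 and 6.25. The median SD of the list was 0.192, and 0.119 without sample 1.

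Adipocyte genes and 2 metallothioneins were high in sample 1 as well. The metallothionein Mt2 had 8.48, 7.74, 7.48 and 7.92, and Mt1 had 7.12, 6.76, 6.57 and 6.93. Their list of xenobiotic, NRF2 and metallothionein genes was less uniform, with sample 1 highest for 5 of 14 and sample 4 for 6. The adipocyte list had a score of 0.13 in sample 1 and -0.07 in sample 2, with sample 1 highest for 13 of 20 genes. Of the 20, 13 lie above the receptor level. There sample 1 was highest in 26.7% of all genes, and at or under that level in 40.8%. The median SD of the adipocyte list was 0.144, and 0.0955 without sample 1. Adipoq, the adipose hormone adiponectin, had 7.82, 7.04, 7.41 and 7.41. Scd1, the desaturase of fat synthesis, had 9.31, 8.54, 9.01 and 9.08, and Cidec, a lipid droplet protein, had 6.55, 5.95, 6.09 and 6.01. In all 3 genes sample 1 was highest and sample 2 lowest. Cyp2e1, a cytochrome P450 that oxidises small molecules, had the same samples highest and lowest, at 6.64, 5.82, 6.19 and 6.32. Thbs1, thrombospondin 1, had 7.12, 6.32, 6.27 and 6.22, the chemokine Ccl7 had 6.15, 5.60, 5.34 and 5.56, and Tnfrsf12a, the receptor for TWEAK, had 6.38, 5.85, 5.80 and 5.78. These 3 genes lie outside the lists and were chosen after their values were seen.

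Lists of tissues that were not sampled were highest in sample 1 too. Sample 1 had the highest value of 12 of 17 brain genes, 7 of 12 liver genes, 9 of 13 pancreas and gut genes and 9 of 16 epithelial genes, and its scores for them were 0.14, 0.11, 0.15 and 0.12. Sample 1 was also highest for 7 of 17 testis genes (score 0.12) and 7 of 12 heart genes (0.12). Of all genes at or under the receptor level it had the highest value in 40.8%, and of those above it the lowest in 40.8%. The mean deviation of sample 1 from the 4-array mean was -0.06 for genes between the 75th and 90th percentile of level and 0.04 for those between the 10th and 25th. A value at least 0.3 below the nearest other array was seen in sample 1 for 295 genes above the receptor level, and in samples 2, 3 and 4 for 29, 42 and 42. The reverse, a value at least 0.3 above the nearest other, was seen for 107 genes in sample 1 and for 25, 28 and 40 in the others. After quantile normalization the counts for sample 1 were 240 and 150, and 23 of 27 immediate early genes were highest there. After median centring they were 361 and 83, and 18 of 27 immediate early genes were highest there. How much of the immediate early and adipocyte result goes with this shift was not tested.

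Ribosomal protein genes were the list in which sample 1 was lowest by most, with a score of -0.11. Rpl4 had 7.05, 8.32, 8.24 and 7.97, and Rpl23 had 7.18, 8.21, 7.98 and 7.98. Sample 1 lay far below the other 3 in both. Other members were level, such as Rps3 at 9.97, 9.96, 9.99 and 9.93 and Rps9 at 11.23, 11.30, 11.32 and 11.31. Rps24 instead spread over samples 3 and 4, at 7.65, 7.77, 7.25 and 8.29. Only 12 of the 40 listed genes had rows of their own, and ribosomal protein genes have many near-identical pseudogene copies, so these values are uncertain. The median SD of the list was 0.211, and 0.111 without sample 1.

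Sample 3 was highest for 8 of the 10 tendon genes, with a list score of 0.12 against -0.06, -0.01 and -0.05 in samples 1, 2 and 4. Of all genes above the receptor level it was highest in 19.5%. Scx, scleraxis, the transcription factor of tendon, had 5.95, 6.02, 6.39 and 5.67, and Tnmd, tenomodulin, had 7.62, 7.77, 7.97 and 7.65. The myelin genes of the nerve list were highest in the same sample. Pmp22, a peripheral myelin membrane protein, had 7.52, 7.69, 8.21 and 7.72. Mbp, myelin basic protein, had 5.81, 5.62, 6.17 and 5.81, Mal had 5.40, 5.77, 6.13 and 5.56 and Drp2, of the Schwann cell surface, had 5.61, 5.62, 5.93 and 5.51. Of the 13 nerve genes, however, these 4 were the only ones highest in sample 3, while 8 were highest in sample 1, among them the neurofilament Nefl, which was under the receptor level at 4.79 ± 0.160. Above that level, where 7 of the 13 lie, sample 3 was highest in 19.5% of all genes and sample 1 in 26.7%. At or under it these shares were 24.6% and 40.8%. The count of 4 in sample 3 is not far from its shares.

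Most measured clock genes were lowest in sample 3. The circadian clock turns on Per1, Dbp and related genes through the activator Arntl (BMAL1), which itself peaks in the opposite phase. Per1 had 6.53, 6.38, 5.81 and 6.26, and Dbp had 7.50, 7.43, 6.97 and 7.31. Usp2, a ubiquitin protease under clock control, had 7.97, 7.76, 7.43 and 7.78. In all 3 genes sample 3 was lowest, and in Arntl, at 6.36, 6.44, 6.97 and 6.84, it was highest. Of the 14 measured clock genes sample 3 was lowest for 8 and highest for 3, and the score was -0.08. Sample 3 was lowest in 21.0% and highest in 19.5% of all genes above the receptor level, where 13 of the 14 lie. The count of 3 is near the latter share. No source used here gives the hour at which the muscles were taken.

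Other genes that set sample 3 apart were Pln, with the values already given, and Slc25a25, a calcium-dependent carrier of the mitochondrial membrane, at 6.83, 6.77, 5.84 and 6.76. Spry2, an inhibitor of growth factor signalling that was chosen after its values were seen, had 6.79, 6.95, 6.03 and 6.73. In these 3 genes sample 3 was lowest by a wide gap. Pdk4, the kinase that shuts off pyruvate dehydrogenase in fasting, had 9.82, 9.53, 9.17 and 9.42, and the cell cycle inhibitor Cdkn1a had 6.55, 6.52, 5.94 and 6.17. The macrophage list was lowest in sample 3, with a score of -0.09 and the lowest value of 10 of 19 genes there, and highest in sample 4, at 0.09 with 9 of 19. Over all genes above the receptor level, sample 3 was lowest in 21.0% and sample 4 highest in 33.3%. At or under that level these shares were 16.3% and 14.0%. The complement gene C1qa had 6.24, 5.99, 5.57 and 5.93, and Mrc1, the mannose receptor of resident macrophages, had 5.94, 6.08, 5.80 and 6.34.

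**Figure D5:**
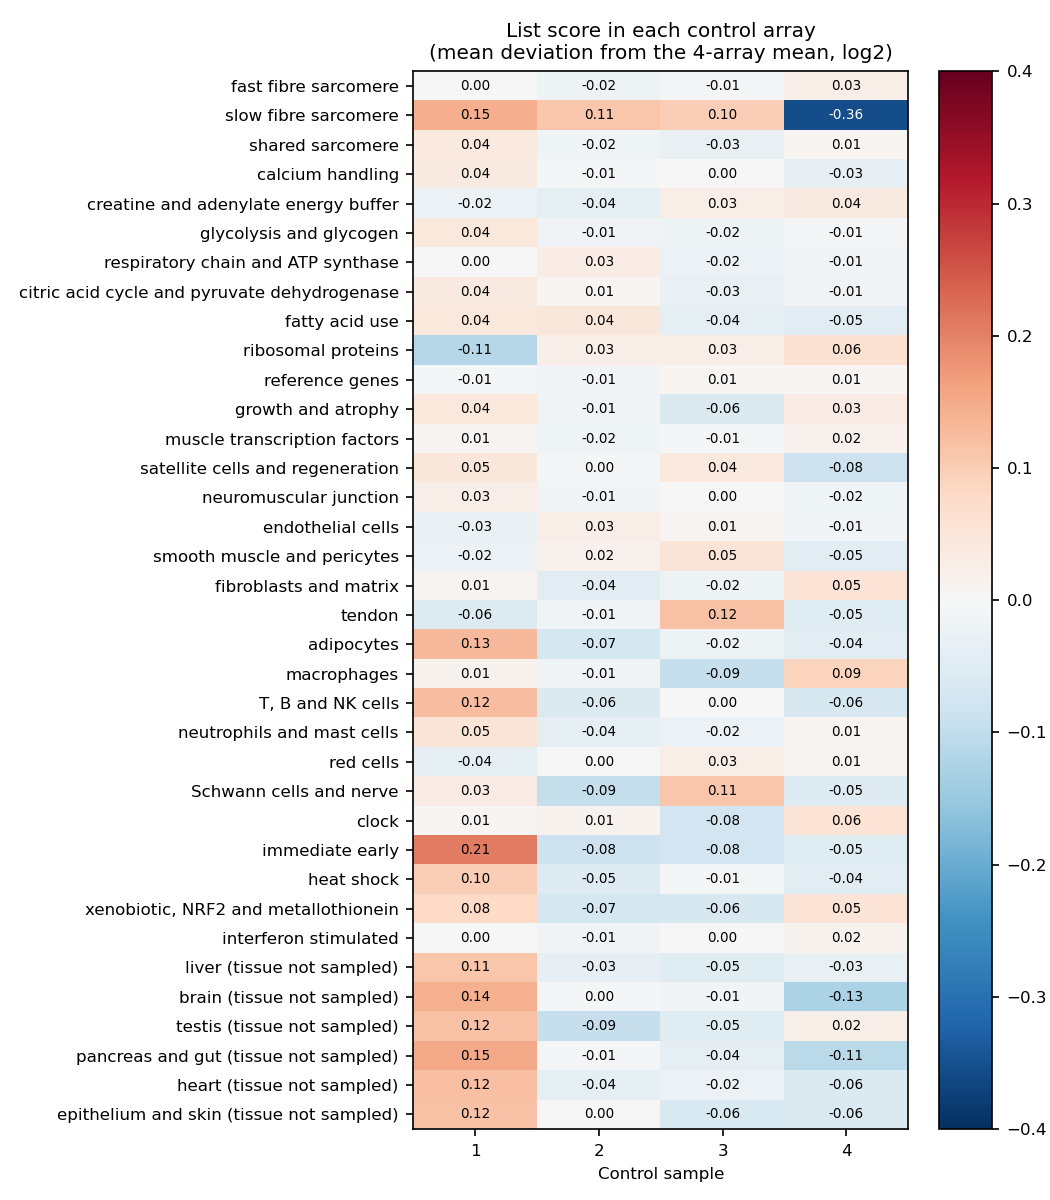
Score of each of the 36 lists in the 4 control samples, the mean over its measured genes of the value minus the gene's 4-array mean, in log2 units, written in each cell and shown by colour. The strongest cell is the slow fibre list in sample 4 at -0.36, followed by the immediate early list in sample 1 at 0.21; the lists of tissues not sampled are all positive in sample 1.

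Sample 2 was the least extreme array by these counts. It had a value at least 0.3 above the nearest other array in 25 genes above the receptor level and at least 0.3 below it in 29. It was lowest for 8 of 20 adipocyte genes and 8 of 20 fibroblast genes, with scores of -0.07 and -0.04, and for 5 of 13 nerve genes, with a score of -0.09. Over all genes, sample 2 was lowest in 17.9% of those above the receptor level and in 22.6% of those at or under that level. Control samples 1 and 3 are called control by title and treatment field, and their descriptions do not call them treated. With these samples only, 6838 genes were above the receptor level, and the median percentiles of the fast fibre and glycolysis lists were 99.9 and 96.3. The median SD of the slow fibre list was 0.0536 in this setting, which leaves out samples 2 and 4, and 0.169 with all 4 samples. Over all genes the median SD was 0.0968 in this setting and 0.118 with all 4 samples, and SDs from unlike numbers of samples are not strictly comparable.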

How the data were processed

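Gastrocnemius RNA of 8 samples was measured on 1-colour arrays, and the 4 control samples were used. The deposited log2 values were made by the authors with RMA, with mm9 named as the build, per the submitters' processing notes; its software, version, probe summary level and row filter were not given in the sources used here. RNA was extracted with TRIzol and amplified before biotin labelling, per the labels' protocols. The base of the logarithm was taken as 2. Arrays have no read depth, and precision is limited by their number.

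Of 16755 rows, 14996 carry 1 gene symbol, 1019 several and 740 none. By gene number, 14941 matched the RefSeq table of GRCm38.p6. The rows with 1 symbol stand for 14860 genes; where a gene had several rows (135 genes), its brightest was kept. Values were used as deposited. With 1 group there is no contrast, so no groups were tested against each other and no p-value is given. Replicates are pools of 2 mice.

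Named genes are the 30 of highest mean, the 25 of largest SD above the receptor level, the 10 of largest SD at any level, the 10 of smallest SD at a level of 8 or more (predicted and receptor genes left out) and list members; genes outside this rule are marked as chosen after their values were seen, and Lsp1 and Olfr1410 are also outside it. The members and lists were chosen with earlier results of these data known. Protein lengths were not used here. A sample was called far from the other 3 when its gap to the nearest, over the whole range, passed Dixon's critical value of 0.829. The code was tested on simulated data. Alternatives were each sample left out, samples 1 and 3 only, median centring, quantile normalization, the mean of a gene's rows, and other thresholds. Calculations used Python 3.11.15, pandas 2.3.3, numpy 2.4.6 and matplotlib 3.10.9.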

Additional observations from a re-analysis of the deposited data

Results flagged for a closer look

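Of 201 sets of 4 control values examined, 36 list scores, 4 measures of the arrays and 161 genes, 19 had 1 sample far from the other 3, in that its gap to the nearest was a large share of the whole range. The share is the gap ratio printed for each. For sets of independent normal values chosen without regard to their values, chance gives about 1 in 20. That rate does not apply to these sets, since many genes were chosen for a large spread or, as Thbs1 and Tnfrsf12a, after their values were seen, and lists and genes overlap.

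The sets that follow the patterns of the report were the slow fibre list score, lowest in sample 4 (0.903), with its members Tnnc1 (0.883), Tpm3 (0.842) and Tnni1 (0.840). Those in which sample 1 stood apart were its mean Spearman correlation with the other controls (0.863), the immediate early list score (0.886) and the score of liver genes, a tissue not sampled (0.878), both highest there. Among genes, sample 1 was highest in Thbs1 (0.883) and Tnfrsf12a (0.879) and lowest in Tmem230 (0.973) and Serf1 (0.832). Sample 3 was lowest in Slc25a25 (0.921).

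In Mstn sample 4 was highest (0.841), with an SD of 0.143 against a median of 0.0830 among genes between the 90th and 99th percentile of level. The remaining cases were bright genes in which the 4 values lay close together, so the gap is a large share of a small range. Sample 1 was highest in Tnni2 (0.937) and Foxn3 (0.838) and lowest in Pvalb (0.856). Sample 2 was highest in Fabp3 (0.875). Sample 4 was lowest in Mdh2 (0.915) and Cox6a2 (0.834).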

How the results depend on the processing

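The number of genes above the receptor level ran from 6939 to 7408 when each sample was left out, and was 4713 with the 99th percentile of receptors and 4397 with genes of tissues not sampled as the yardstick. The median SD was 0.0924 to 0.120 with a sample left out, 0.0968 with samples 1 and 3 only and 0.0869 as a median absolute deviation; the low end was the one without sample 1. The 13 genes above the receptor level with an SD of at least 0.5 became 9 without sample 1, 27 without sample 2, 27 without sample 3, 20 without sample 4, 50 with samples 1 and 3 only, 176 at a threshold of 0.3 and 101 over all genes. The genes shared by the top sets of all arrays were 94 to 97 of 100 with a sample left out, 47 of the top 50 and 181 of the top 200. Median centring, quantile normalization and averaging a gene's rows moved none of these 4 results by more than the spread. Of the list medians of level, 19 of 324 recomputed values moved by more than the spread between pools, of the list spreads 50 of 288, and of the gene levels 4 of 1288, those of Foxn3 (2 settings), Klhl31 and Ldhb (6.44 over its 2 rows). The causes were not tested. No paired analysis was possible because only 1 group was used. With 4 pools an SD is imprecise, and background was judged from receptor genes or genes of tissues not sampled.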

Other observations

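Among families of at least 20 genes that share a symbol stem, those of mitochondrial and cytosolic protein synthesis stood highest. The 25 Mrps genes (small subunit of the mitochondrial ribosome) had a median level percentile of 90.3 with 24 above the receptor level, the 43 Mrpl genes (its large subunit) 87.2 with 42, and the 37 Eif genes (translation initiation) 89.9 with 33. The 32 Ube genes, mainly ubiquitin-conjugating enzymes, had 86.9 with 27. The lowest families were the vomeronasal receptors at 3.25, the Defb beta-defensins at 3.54, the Olfr receptors at 6.83 and the Tas taste receptors at 13.5.

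By chromosome, with olfactory and vomeronasal receptors left out, the median level percentile was 39.1 for the X chromosome and ran from 45.0 on chromosome 6 to 57.0 on chromosome 12 among the autosomes.

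Of the 10 genes of largest SD over all levels, 9 were under the receptor level. Defb11, a beta-defensin, had 5.18, 3.07, 3.34 and 3.52, and Ttc5 had 3.26, 4.78, 5.42 and 4.65. Sample 1 was the high one in Defb11 and the low one in Ttc5. Gcsh, a subunit of the glycine cleavage system, had 3.85, 5.73, 5.03 and 5.45, and Glrx3, a glutaredoxin, had 5.14, 4.30, 3.57 and 3.47. The taste receptor Tas2r129, the amine receptor Taar7b, the peptide hormone gene Ucn3 and the genes Gnpnat1 and Rassf9 were the other 5 under that level.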
